A study of Mus musculus with 10 samples.

Results

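The IGHV5 family of immunoglobulin heavy chain V genes was examined in the deep cervical lymph nodes of mice bearing gliomas. The members were 9 genes, IGHV5-2, IGHV5-4, IGHV5-6, IGHV5-9, IGHV5-9-1, IGHV5-12, IGHV5-15, IGHV5-16 and IGHV5-17, and a heavy-chain sequence was counted as IGHV5 where its V call named genes of this family alone. Of 339204 heavy-chain sequences in the series, 13201 met this rule, 11709 marked productive and 1492 marked non-productive by the authors. All 9 genes were called. The files also held 1 productive clonotype of IGHV5-12-4, which was the sole further IGHV5 gene, and a joint call of IGHV5-4 with IGHV5-6, which had 8 productive and 14 non-productive clonotypes and is named although its number fell below the minimum for joint calls.

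The mice were C57BL/6 wild type and all had received GL261 cells, a mouse glioma line, by intracranial injection. They were treated with anti-CTLA-4 antibody (n = 5), which blocks an inhibitory receptor of T cells, or with isotype IgG (n = 5). Nodes were taken on day 20, and 1 heavy- and light-chain receptor library was made per mouse from the RNA of whole node cells. The protocols name no sort for B cells and the files held receptor transcripts alone, so the labelled tissue could not be checked against other marker genes. A clonotype is here a distinct combination of V call, J gene, junction nucleotides, constant gene and productive mark within a mouse, the junction being the stretch from the conserved cysteine of the V gene to the conserved tryptophan of the J gene. IGHV5 supplied 10886 of 284572 productive clonotypes and 1411 of 24103 non-productive clonotypes.

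A heavy chain gene is assembled in 2 steps, D to J and then V to DJ, and bases are lost and added at each joint. A joint that shifts the reading frame or creates a stop codon is non-productive, and a B cell can carry such an allele beside the productive allele that makes its antibody. A non-productive allele makes no heavy chain, whereas a productive chain must pair with surrogate and then conventional light chains before the cell goes on. IGHV5, also named VH7183, is interspersed with IGHV2, also named Q52, at the D-proximal end of the mouse locus, whereas IGHV1, also named J558, makes up much of the distal part. IGHV5-2, long studied as VH81X, is known in mice for frequent rearrangement in early precursors and for heavy chains that often pair poorly with the surrogate light chain.

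The germline V sequences of IGHV5-2, IGHV5-4 and IGHV5-16 are shown because the non-productive rearrangements turned on IGHV5-2, and IGHV5-4 and IGHV5-16 were the most used members among productive clonotypes. They were read from the germline side of the deposited alignments and lie on chromosome 12. Capitals mark, from left to right, CDR1, CDR2 and the end of the V gene from the conserved cysteine.
IGHV5-2: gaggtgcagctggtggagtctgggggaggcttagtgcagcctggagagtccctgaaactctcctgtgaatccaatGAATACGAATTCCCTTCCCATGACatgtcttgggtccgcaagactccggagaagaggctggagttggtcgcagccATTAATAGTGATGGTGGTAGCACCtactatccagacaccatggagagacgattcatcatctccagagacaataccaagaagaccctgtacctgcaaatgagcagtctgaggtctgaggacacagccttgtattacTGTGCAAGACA
IGHV5-4: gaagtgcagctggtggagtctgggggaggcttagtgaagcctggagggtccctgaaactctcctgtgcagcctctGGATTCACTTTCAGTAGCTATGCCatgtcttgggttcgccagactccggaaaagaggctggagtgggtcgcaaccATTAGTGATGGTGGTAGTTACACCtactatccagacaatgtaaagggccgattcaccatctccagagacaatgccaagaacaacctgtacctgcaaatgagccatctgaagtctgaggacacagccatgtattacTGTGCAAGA
IGHV5-16: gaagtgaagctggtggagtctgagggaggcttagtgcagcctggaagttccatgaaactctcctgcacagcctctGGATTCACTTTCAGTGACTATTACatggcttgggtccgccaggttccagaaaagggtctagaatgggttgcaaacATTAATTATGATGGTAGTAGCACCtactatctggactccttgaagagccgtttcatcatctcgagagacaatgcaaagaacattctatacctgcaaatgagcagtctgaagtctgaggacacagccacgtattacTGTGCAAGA
The deposited germline record of IGHV5-2 ran to 296 nucleotides and those of the other 8 members to 294, and bases beyond the record were read there as part of the joint. Over the first 285 nucleotides, which end before the cysteine, identity between members ranged from 78.6% for IGHV5-2 and IGHV5-15 to 95.4% for IGHV5-4 and IGHV5-6. IGHV5-2 was 79.6% identical to IGHV5-16, with 58 differences, and 84.2% identical to IGHV5-4. The pair with the highest identity was also the pair that gave the joint call. In the gene order of the GRCm38.p6 table, IGHV5-2 lay at the D-proximal end of the 9 genes, followed by IGHV5-4, IGHV5-6, IGHV5-9, IGHV5-12, IGHV5-9-1, IGHV5-15, IGHV5-16 and IGHV5-17.

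Libraries held 20957 to 41440 productive heavy-chain clonotypes per mouse, and their deposited counts on productive heavy chains ranged from 159157 to 362445. IGHV5 rested on 676 to 1610 productive and 84 to 242 non-productive clonotypes per mouse. Some rearrangements, taken as V call, J gene and junction, occurred in 2 libraries with more counts in the other. They made up 0.133% to 1.75% of a mouse's productive IGHV5 clonotypes, but 50.7% of the IGHV5 counts of isotype replicate 4 and 8.39% of those of anti-CTLA-4 replicate 3, against at most 0.265% in the other mice. Isotype replicates 3 and 4 shared their largest IGHV5 clone, and what led to the sharing was not tested. Clonotype numbers therefore carry the comparisons below.

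Among productive clonotypes IGHV5-16 was the most used member and IGHV5-2 was among the least used, and usage did not order with distance from the D segments. IGHV5-16 averaged 1.37% ± 0.113 of all productive clonotypes in anti-CTLA-4 mice and 1.41% ± 0.101 in isotype mice (SD, n = 5 each). IGHV5-4 took 0.656% ± 0.0303 in anti-CTLA-4 mice and 0.739% ± 0.0531 in isotype mice, and IGHV5-17 took 0.651% ± 0.0860 and 0.678% ± 0.0451 (SD, n = 5 each). These 3 genes had ranges that did not overlap between IGHV5-16 and the other two, whereas IGHV5-4 and IGHV5-17 overlapped. IGHV5-6, IGHV5-9-1 and IGHV5-9 formed a middle group with means over all mice of 0.274%, 0.272% and 0.239%, whose ranges overlapped. IGHV5-12 at 0.106% ± 0.0146, IGHV5-2 at 0.0769% ± 0.0148 and IGHV5-15 at 0.0716% ± 0.0199 (SD, n = 10) were lowest, and their ranges overlapped as well.

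**Figure D1:**
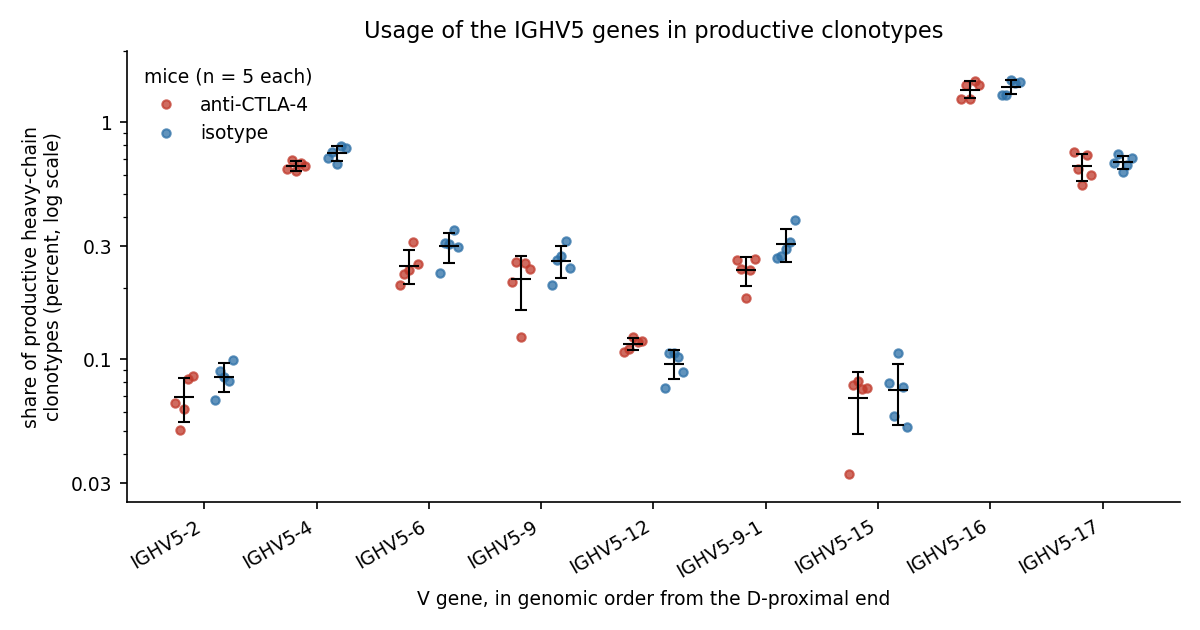
Share of productive heavy-chain clonotypes (percent, log scale) for each of the 9 IGHV5 genes, in genomic order from the D-proximal end. Points are mice, anti-CTLA-4 left and isotype right, and bars are mean ± SD (n = 5 each); IGHV5-16 lies highest at 1.37% and 1.41%, and IGHV5-2 and IGHV5-15 lie lowest.

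Whether CTLA-4 blockade changed the use of these genes was tested over all V calls. None of the 9 members passed the test, and 8 of 9 had a lower mean after anti-CTLA-4. The share of all V calls with a lower mean is not given here, so this count cannot be read as a fall of the family. The family as a whole took 3.52%, 3.73%, 3.23%, 3.98% and 3.72% of productive clonotypes in anti-CTLA-4 replicates 1 to 5, against 3.62%, 3.89%, 3.97%, 4.16% and 4.14% in isotype replicates 1 to 5. The groups overlapped: anti-CTLA-4 replicates 4, 2 and 5 lay above the lowest isotype mouse. The log2 fold change of the family, anti-CTLA-4 over isotype, was -0.12 (SE 0.060, Benjamini-Hochberg adjusted p = 0.227 from the quasi-likelihood test of edgeR), when 13.3% of 15 families were called.

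Among single members the unadjusted p was lowest for IGHV5-9-1. It took 0.263%, 0.239%, 0.181%, 0.238% and 0.265% of productive clonotypes in anti-CTLA-4 replicates 1 to 5, against 0.266%, 0.273%, 0.292%, 0.312% and 0.388% in isotype replicates 1 to 5. Every anti-CTLA-4 mouse lay below every isotype mouse, although by little at the border. The log2 fold change was -0.35 (SE 0.13) and did not pass (Benjamini-Hochberg adjusted p = 0.260 in edgeR), and 1.02% of 98 V calls were called. IGHV5-12 was the sole member with a higher mean, at 0.116% ± 0.00670 in anti-CTLA-4 mice and 0.0959% ± 0.0135 in isotype mice (SD, n = 5 each; its log2 fold change of 0.26 had an edgeR adjusted p = 0.639). Here too the groups did not overlap, with 0.108% as the lowest anti-CTLA-4 mouse and 0.107% as the highest isotype mouse. The share of the 98 V calls without overlap is not given here. Whether the separation of IGHV5-9-1 and of IGHV5-12 is unusual therefore cannot be judged. The other 7 members had log2 fold changes of -0.24 to -0.03. With deposited counts in place of clonotypes these 7 were larger in size, in both directions, and none passed. IGHV5-15 had -3.97 (edgeR adjusted p = 0.0769), IGHV5-16 -2.11 (adjusted p = 0.243) and IGHV5-4 -1.70 (adjusted p = 0.423). IGHV5-9 had -1.18 and IGHV5-2 -0.62, whereas IGHV5-17 at 1.39 and IGHV5-6 at 0.26 turned positive. In the clonotype fit IGHV5-15, IGHV5-16 and IGHV5-17 turned positive when single mice were left out. IGHV5-15 had 0.11 without isotype replicate 3 and 0.057 without anti-CTLA-4 replicate 1. IGHV5-16 and IGHV5-17 reached at most 0.013 and 0.0068, both without anti-CTLA-4 replicate 3.

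Non-productive rearrangements gave the members another order, led by IGHV5-2. Of its clonotypes 494 were non-productive and 225 productive, a non-productive share of 68.7% over all mice, which was the highest of the 98 V calls with at least 100 productive clonotypes and lay far above their median of 6.64%. By mouse the share was 68.2%, 75%, 77.6%, 75.4% and 64.5% in anti-CTLA-4 replicates 1 to 5, against 69.1%, 56.0%, 63.5%, 67.8% and 70.3% in isotype replicates 1 to 5. All mice lay above 50% and the groups overlapped. With 11 to 37 productive clonotypes per mouse the intervals are wide. The lowest mouse had a 95% exact Clopper-Pearson interval of 44.7% to 66.8%, which covers counting error only.

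IGHV5-2 made up 2.04% ± 0.467 of non-productive and 0.0769% ± 0.0148 of productive clonotypes (SD, n = 10). The log2 fold change, non-productive over productive with the mouse as a block, was 4.69 (SE 0.15, Benjamini-Hochberg adjusted p = 1.87e-49 in edgeR). In that comparison 78% of 100 V calls were called, 36% higher and 42% lower among the non-productive. IGHV5-2 ranked 8 of 100 by fold change, and the 7 V calls above it had at most 93 productive clonotypes each. Against all other V calls of the same mouse the share was higher by 61.1 percentage points ± 6.17 (SD) and higher in 10 of 10 mice (exact sign-flip permutation p = 0.00195, the smallest the design allows, adjusted p = 0.00414 over 87 V calls). With in-frame non-productive junctions alone the IGHV5-2 value was 3.09 (edgeR adjusted p = 2.15e-25). With shared rearrangements dropped only from the library where they had fewer counts it was 4.80.

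The 3 V calls whose non-productive share by mouse was most like that of IGHV5-2 were IGHV1-11, IGHV12-3 and IGHV1-56, measured as the mean absolute difference over 10 mice. IGHV1-11 differed by 8.58 percentage points on average, IGHV12-3 by 9.75 and IGHV1-56 by 11.0. Their mean shares were 67.7% ± 6.79, 61.4% ± 9.09 and 59.2% ± 9.20 (SD, n = 10), and these spreads overlap that of IGHV5-2 at 68.7% ± 6.45. IGHV12-3 is a gene known from mouse B-1 cells that bind phosphatidylcholine. IGHV5-2 ranked first among the 98 V calls in 5 of 10 mice, and among the first 3 in the others.

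**Figure D2:**
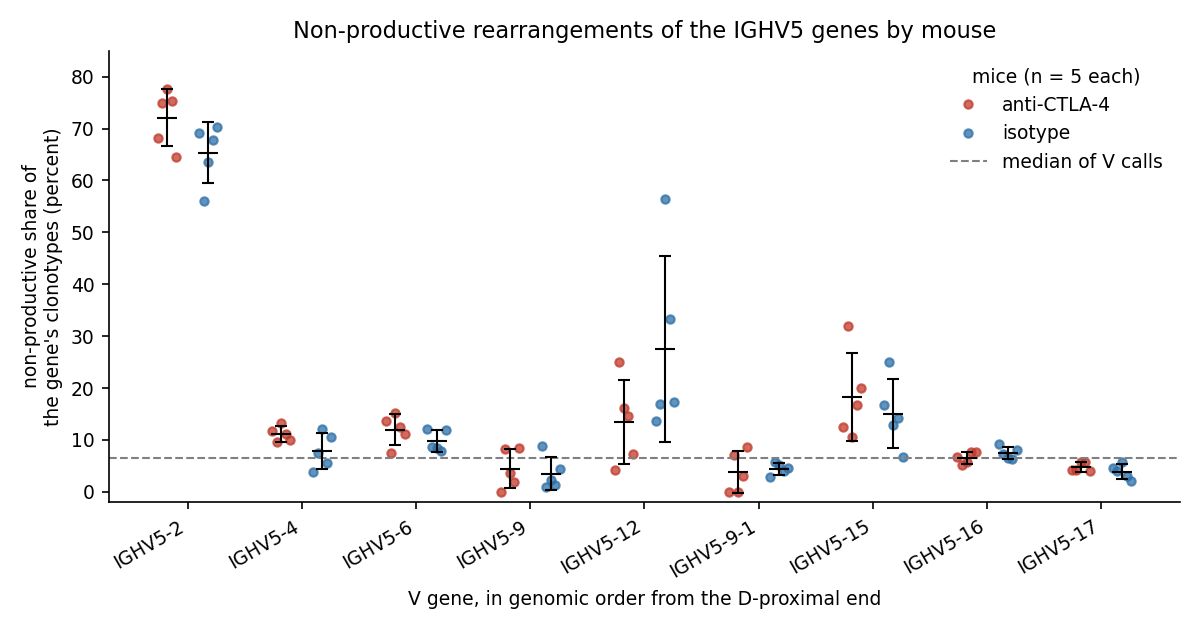
Non-productive share of each gene's clonotypes (percent) for the 9 IGHV5 genes in genomic order from the D-proximal end. Points are mice, anti-CTLA-4 left and isotype right, bars are mean ± SD (n = 5 each) and the dashed line is the median of the mean shares of 98 V calls (6.54%); IGHV5-2 lies between 56.0% and 77.6% in all 10 mice, and IGHV5-12 reaches 56.4% in isotype replicate 3.

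Most non-productive IGHV5-2 joints were out of frame, namely 387 of 494, while 63 were in frame and 44 had no junction in the files. Their median deposited count was 1, as for the productive ones. Only 3 of the 494 lay within 1 edit of a productive IGHV5-2 junction with the same J gene in the same mouse. The best counted out-of-frame and productive joints are shown to compare their reading frames. Capitals mark the bases that equal the germline V end.
IGHV5-2 IGHJ4, out of frame, 49 nucleotides: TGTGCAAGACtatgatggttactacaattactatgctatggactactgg
IGHV5-2 IGHJ3, out of frame, 50 nucleotides: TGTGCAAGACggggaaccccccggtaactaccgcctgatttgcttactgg
IGHV5-2 IGHJ4, out of frame, 58 nucleotides: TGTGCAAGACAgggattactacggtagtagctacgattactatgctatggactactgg
IGHV5-2 IGHJ1, productive, 48 nucleotides: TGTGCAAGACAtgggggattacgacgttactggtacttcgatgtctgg
IGHV5-2 IGHJ3, productive, 36 nucleotides: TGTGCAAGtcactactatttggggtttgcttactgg
IGHV5-2 IGHJ4, productive, 45 nucleotides: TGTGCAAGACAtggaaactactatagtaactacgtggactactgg
The first, counted 46 times in IgM and IgG, came from anti-CTLA-4 replicate 1, the second from the same mouse with 20 in IgM, and the third from anti-CTLA-4 replicate 3 with 7 in IgM and IgG. The productive joints had counts of 18 in isotype replicate 4 and of 9 and 8 in isotype replicate 2, all IgM. The out-of-frame lengths exceed whole codons by 1, 2 and 1 nucleotides. The full 11 nucleotides of the IGHV5-2 V end were kept in 142 of 387 out-of-frame junctions, or 36.7%, and in 136 of 225 productive junctions, or 60.4%, a description with no test.

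The remaining members fell on both sides of the other V calls. IGHV5-12 was higher among non-productive clonotypes, with a log2 fold change of 1.79 (standard error 0.26, adjusted p = 1.93e-09, edgeR), as were IGHV5-6 at 0.51 (adjusted p = 0.0115) and IGHV5-4 at 0.31 (adjusted p = 0.0438). IGHV5-9 at -1.08, IGHV5-17 at -0.87 and IGHV5-9-1 at -0.82 were lower, with adjusted p = 6.85e-04, 4.88e-06 and 0.00317. IGHV5-16 had -0.14 and did not pass (adjusted p = 0.294), and IGHV5-15 did not pass the filter on low numbers. Their non-productive shares over all mice were 24.4% for IGHV5-12, 17.7% for IGHV5-15, 10.7% for IGHV5-6, 9.46% for IGHV5-4, 7.14% for IGHV5-16, 4.55% for IGHV5-9-1, 4.41% for IGHV5-17 and 3.75% for IGHV5-9. The IGHV5-4 call ended without anti-CTLA-4 replicate 3 (adjusted p = 0.0893) or replicate 4 (adjusted p = 0.0863), without the filter (0.049, adjusted p = 0.793) and in the exact sign-flip permutation test of shares (adjusted p = 0.0975). The IGHV5-6 call ended without the filter (0.25, adjusted p = 0.250), and IGHV5-6 was lower in place of higher when deposited counts replaced clonotypes (log2 fold change -1.0, adjusted p = 0.0491). As a family, IGHV5 had a non-productive share of 11.4% ± 1.53, the neighbouring IGHV2 family 12.1% ± 1.93 and the IGHV1 family 6.79% ± 0.584 (SD, n = 10), and IGHV5-2 held 494 of the 1411 non-productive IGHV5 clonotypes.

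Much of the non-productive number of IGHV5-12 lay in expanded out-of-frame clones of a few mice. By mouse its non-productive share was 4.17%, 25%, 16.1%, 14.5% and 7.32% in anti-CTLA-4 replicates 1 to 5, against 13.6%, 17.0%, 56.4%, 33.3% and 17.2% in isotype replicates 1 to 5. Isotype replicates 3 and 4 stood above the rest. In isotype replicate 3 a single lineage, that is joints of 1 V, J and length with at least 90% identity, held 32 of the 44 non-productive clonotypes, and in isotype replicate 4 a lineage with the same leading junction held 10 of 12. A separate lineage held 5 of 8 in anti-CTLA-4 replicate 2.
IGHV5-12 IGHJ4, isotype replicates 3 and 4, out of frame, 40 nucleotides: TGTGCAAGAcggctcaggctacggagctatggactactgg
IGHV5-12 IGHJ4, anti-CTLA-4 replicate 2, out of frame, 49 nucleotides: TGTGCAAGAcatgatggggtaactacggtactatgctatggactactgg
Both were seen with IgM, IgG and IgE constant genes, IgG and IgE being the classes reached by switching. Clonotypes of the shared lineage carried a median of 3.5 V mismatches in isotype replicate 3 and 4 in isotype replicate 4, up to 11 and 8. With each lineage counted once the IGHV5-12 value was 1.15 (adjusted p = 2.22e-05), and with IgM alone 1.22 (adjusted p = 2.93e-04, edgeR for both). With shared rearrangements dropped only from the library where they had fewer counts it was 1.75. The leading junction of the shared lineage had a count of 219 in isotype replicate 3 and 97 in isotype replicate 4. That run therefore kept it in isotype replicate 3 and cannot show the value without the shared lineage. With in-frame junctions alone the IGHV5-12 value was 0.15, which did not pass (edgeR adjusted p = 0.837). With deposited counts it was 1.68 and did not pass either (edgeR adjusted p = 0.0569). IGHV5-15 also had non-productive lineages of several clonotypes: 1 held 6 of 8 non-productive clonotypes in anti-CTLA-4 replicate 2, with IgM, IgG and IgE, and another held 4 of 6 in anti-CTLA-4 replicate 5, with IgM and IgG.

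Whether the non-productive over productive ratio differed between treatments was tested as an interaction, and no V call passed: 0% of 112 were called by edgeR, 4 having an unadjusted p under 0.05, and DESeq2 also called 0 with 7 under that value. IGHV5-2 had a difference of 0.47 on the log2 scale, anti-CTLA-4 minus isotype (standard error 0.29, adjusted p = 0.746, edgeR). IGHV5-12 had -1.51 (adjusted p = 0.470). That of IGHV5-12 passed without isotype replicate 2 (-1.96, edgeR adjusted p = 0.0310) or without anti-CTLA-4 replicate 2 (-2.02, edgeR adjusted p = 0.0457). Over all the runs without single mice it ran from -2.02 to -0.895, so its size depended on single mice. The shared lineage above lies in isotype mice alone.

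**Figure D3:**
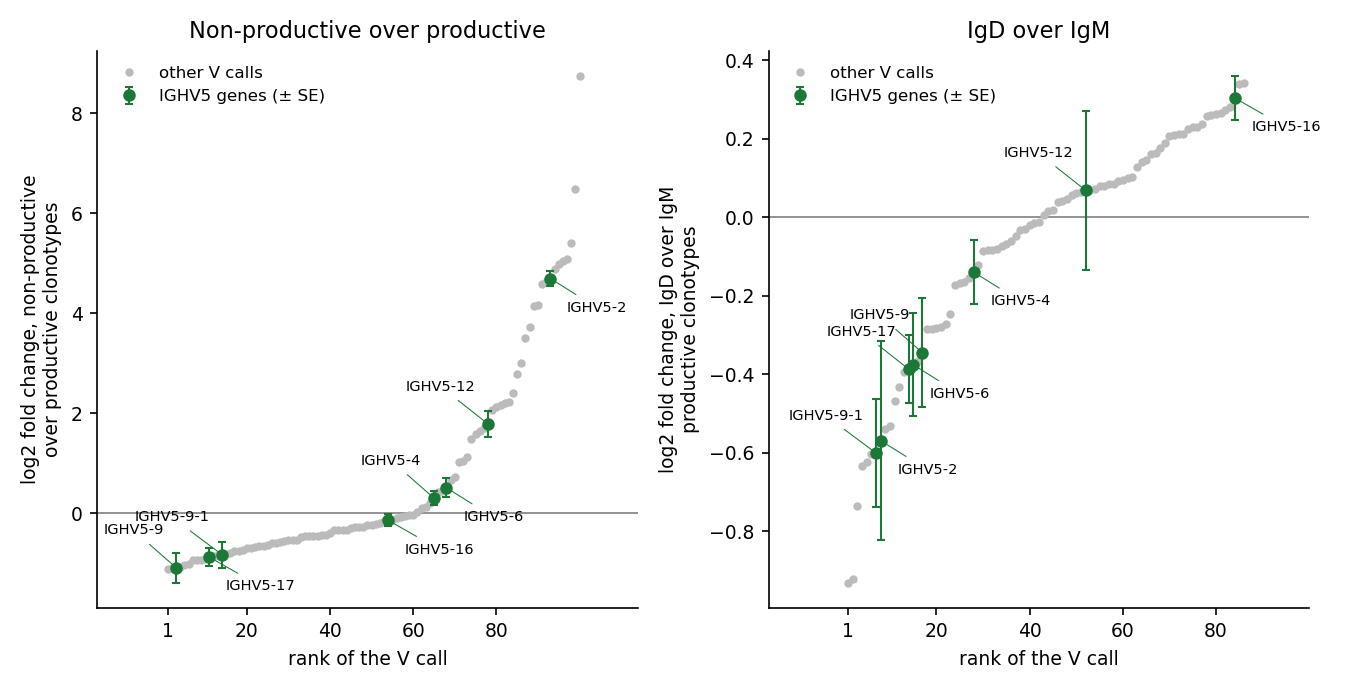
Log2 fold changes of all V calls tested, ranked from lowest to highest, for non-productive over productive clonotypes (left, 100 V calls) and for IgD over IgM productive clonotypes (right, 86 V calls). Green points are the IGHV5 genes with their standard errors and grey points the other V calls; IGHV5-2 lies at 4.69 on the left, and IGHV5-16 at 0.30 lies apart from the other IGHV5 genes on the right.

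The J gene, which supplies the end of CDR3, also differed between non-productive and productive IGHV5-2 joints. This test was added after the data had been seen and covered 40 V calls with each of 4 J genes, of which 18.1% were called, 7.5% higher and 10.6% lower among the non-productive. IGHJ2 was used by 33.3%, 54.5%, 46.7%, 47.5% and 44.9% of non-productive IGHV5-2 clonotypes in anti-CTLA-4 replicates 1 to 5 and by 50%, 34.0%, 44.7%, 47.5% and 48.4% in isotype replicates 1 to 5. Among productive IGHV5-2 clonotypes it was used by 7.14%, 0%, 23.1%, 3.03% and 7.41% in anti-CTLA-4 replicates 1 to 5 and by 17.6%, 10.8%, 7.41%, 0% and 14.8% in isotype replicates 1 to 5. In every mouse the non-productive share was the higher one. IGHJ2 averaged 45.2% ± 6.66 among non-productive and 9.13% ± 7.57 among productive clonotypes, a difference of 36.0 percentage points (SD, n = 10; higher in 10 of 10 mice, exact sign-flip permutation p = 0.00195, adjusted p = 0.0174 over 160 tests). IGHJ1 ran the other way, at 7.49% ± 3.55 among non-productive and 32.3% ± 9.47 among productive clonotypes (SD, n = 10; lower in 10 of 10 mice, exact sign-flip permutation adjusted p = 0.0174). IGHJ3, at 28.5% and 33.2%, and IGHJ4, at 18.8% and 25.4%, did not pass (exact sign-flip permutation adjusted p = 0.559 and 0.156).

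IGHV5-16, which reached the same minimum of 10 clonotypes of each kind in every mouse, also used IGHJ1 less among non-productive clonotypes. The 2 genes were not tested against each other. IGHJ3 was used by 24.2% ± 9.98 of its non-productive and 11.6% ± 0.631 of its productive clonotypes (higher in 10 of 10 mice), and IGHJ1 by 14.2% ± 8.29 and 27.5% ± 2.94 (SD, n = 10; lower in 10 of 10 mice). Both passed with an exact sign-flip permutation adjusted p = 0.0174. Its IGHJ2 share was 41.7% ± 11.2 among non-productive and 32.9% ± 2.24 among productive clonotypes and did not pass (exact sign-flip permutation adjusted p = 0.0625). The other 7 members had too few non-productive clonotypes per mouse for this test. With IgM clonotypes alone IGHV5-2 no longer reached the minimum in every mouse.

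**Figure D4:**
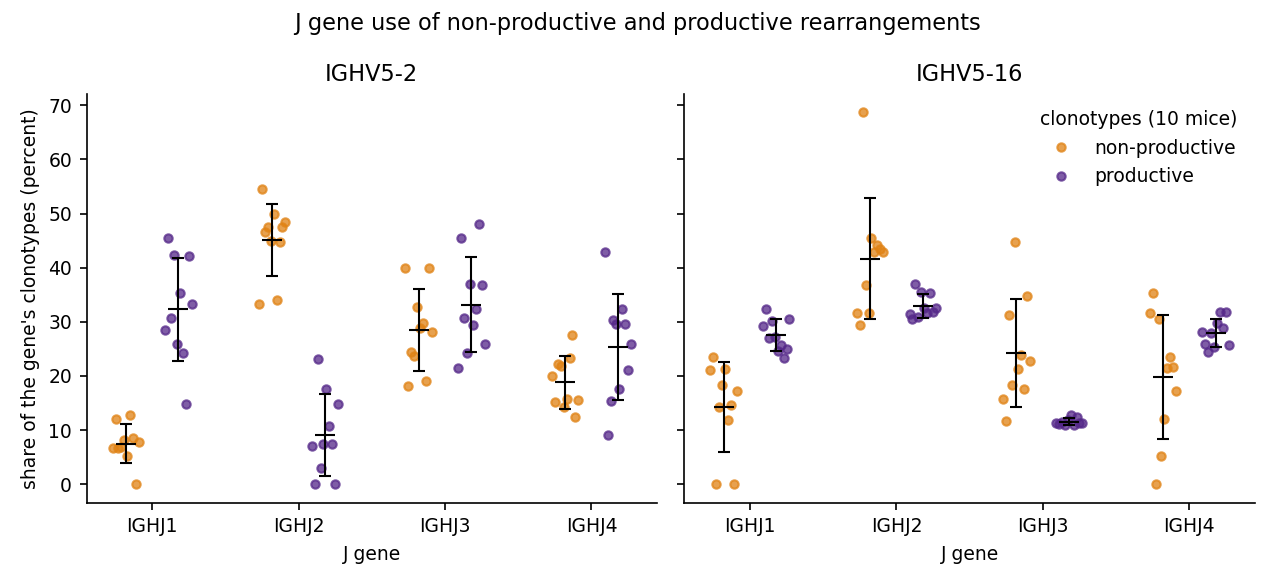
Share of IGHV5-2 clonotypes (left) and IGHV5-16 clonotypes (right) that used each J gene, in percent, for non-productive (orange) and productive (purple) rearrangements. Points are the 10 mice and bars are mean ± SD; IGHJ2 took 45.2% of non-productive and 9.13% of productive IGHV5-2 clonotypes, without overlap between the 2 kinds.

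Class, read from the constant gene, showed IGHV5 productive clonotypes to be largely unswitched. Of the 10886, 8025 were IgM, 2532 IgD, 187 IgG, 130 IgA and 5 IgE. IGHV5-2 had 183 IgM, 41 IgD and 1 IgG clonotypes and no IgA clonotype among 225, for which the upper limit at 3 counts is 1.33%. IgG made up 2.15% ± 1.51 of productive IGHV5 clonotypes in anti-CTLA-4 mice and 1.62% ± 0.980 in isotype mice, and IgA 1.14% ± 0.750 and 1.39% ± 0.875 (SD, n = 5 each). Over all V genes IgG made up 3.29% ± 1.90 of clonotypes in anti-CTLA-4 mice and 1.53% ± 0.626 in isotype mice (SD, n = 5 each), and these differences from IGHV5 were not tested. Over all V genes IgA made up 0.561% ± 0.311 of clonotypes in anti-CTLA-4 mice and 0.568% ± 0.220 in isotype mice.

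IgD and IgM are made from 1 rearranged gene by RNA processing in mature naive B cells. IGHV5-16 was higher in IgD than in IgM, whereas IGHV5-9-1, IGHV5-17, IGHV5-6 and IGHV5-9 were lower. The IgD share of IGHV5-16 clonotypes was 33.3%, 23.1%, 27.1%, 33.9% and 30.8% in anti-CTLA-4 replicates 1 to 5, against 29.3%, 26.4%, 27.2%, 26.3% and 24.8% in isotype replicates 1 to 5, with overlap between treatments. The IgD share of IGHV5-9-1 clonotypes averaged 16.9% ± 6.66 and that of all heavy-chain clonotypes 24.3% ± 2.23 (SD, n = 10). Log2 fold changes, IgD over IgM with the mouse as a block, were 0.30 for IGHV5-16 (standard error 0.056, adjusted p = 5.83e-07, edgeR), -0.60 for IGHV5-9-1 (adjusted p = 7.22e-05), -0.39 for IGHV5-17 (adjusted p = 4.05e-05), -0.38 for IGHV5-6 (adjusted p = 0.0100) and -0.35 for IGHV5-9 (adjusted p = 0.0285).

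In that comparison 46.5% of 86 V calls were called, 23.3% in each direction. IGHV5-2 at -0.57 (adjusted p = 0.0533), IGHV5-4 at -0.14 (adjusted p = 0.145) and IGHV5-12 at 0.07 (adjusted p = 0.781) did not pass in edgeR, and IGHV5-15 fell below the filter. IGHV5-2 passed without anti-CTLA-4 replicate 2 (-0.68, adjusted p = 0.0208). The IGHV5-6 call ended without isotype replicate 1, isotype replicate 2 or anti-CTLA-4 replicate 4 (adjusted p = 0.0552, 0.0671 and 0.134). The IGHV5-9 call ended without isotype replicate 1, 3 or 4 or anti-CTLA-4 replicate 1 (adjusted p = 0.0813, 0.0787, 0.0788 and 0.0540), and both calls ended with DESeq2 (adjusted p = 0.0848 and 0.0918). With clonotypes counted 2 or more times both also ended, IGHV5-6 at -0.24 and IGHV5-9 at -0.24 (edgeR adjusted p = 0.333 and 0.445).

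For the switched classes the members had few clonotypes. In IgG over IgM none of the 6 members tested passed, when 7.23% of 83 V calls were called, 1.2% higher and 6.02% lower. IGHV5-9-1 had the highest value of the 6 with 0.61 and IGHV5-17 the lowest with -1.16 (edgeR adjusted p = 0.643 and 0.322). With lineages in place of clonotypes IGHV5-9-1 was higher in IgG, at 1.42 (adjusted p = 0.00831, edgeR). In IgA over IgM, IGHV5-9-1 was the sole member called, at 1.47 (SE 0.57, edgeR adjusted p = 0.0298), when 38.8% of 80 V calls were called, 3.75% higher and 35% lower. It was called with DESeq2 (1.57, adjusted p = 0.00490) and with library totals alone in place of TMM factors (2.15, adjusted p = 0.00327). The call ended when single mice were left out, namely isotype replicates 1 and 4 (adjusted p = 0.0807 and 0.0548) and anti-CTLA-4 replicates 1, 3, 4 and 5 (adjusted p = 0.0709, 0.0549, 0.0770 and 0.0570). It rested on 20 IgA clonotypes of 776. On simulated data the IgA fit missed most of the changes and gave fold changes that were too low, so neither its sizes, nor the share called lower, nor a member's failure to pass can be read closely.

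CDR3, the loop formed at the joint, was longer than in the other clonotypes of the same mouse for IGHV5-16 and shorter for IGHV5-17 and IGHV5-9-1. IGHV5-16 averaged 12.2 amino acids and all other V calls 11.8, a difference of 0.48 ± 0.12 (SD, n = 10; longer in 10 of 10 mice, exact sign-flip permutation p = 0.00195, adjusted p = 0.00416). IGHV5-17 averaged 11.0 amino acids, shorter by 0.76 ± 0.33 in 10 of 10 mice (exact sign-flip permutation adjusted p = 0.00416). IGHV5-9-1 averaged 11.2 amino acids with a difference of -0.55 ± 0.55 and was longer in 1 of 10 mice (SD, n = 10; exact sign-flip permutation adjusted p = 0.0110). IGHV5-4 at -0.02, IGHV5-6 at -0.14 and IGHV5-9 at 0.23 did not pass (exact permutation adjusted p = 0.730, 0.272 and 0.192). With IgM clonotypes alone IGHV5-9 passed as longer, by 0.24 (exact sign-flip permutation adjusted p = 0.0485). Among 81 V calls 67.9% were called, 35.8% longer and 32.1% shorter than the rest.

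With a lower minimum of 5 clonotypes per mouse, added after the data had been seen, 65.3% of 98 V calls were called, 34.7% longer and 30.6% shorter, and the remaining members could be tested. IGHV5-15 was longer by 0.44 ± 0.39 amino acids in 8 of 10 mice (exact sign-flip permutation adjusted p = 0.0227). IGHV5-2 differed by -0.17 and IGHV5-12 by -0.16, and neither passed (exact permutation adjusted p = 0.303 and 0.369). With medians in place of means the IGHV5-16 difference was 0 and that of IGHV5-9-1 was -0.75 (exact permutation adjusted p = 1 and 0.0974), which ended both calls.

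**Figure D5:**
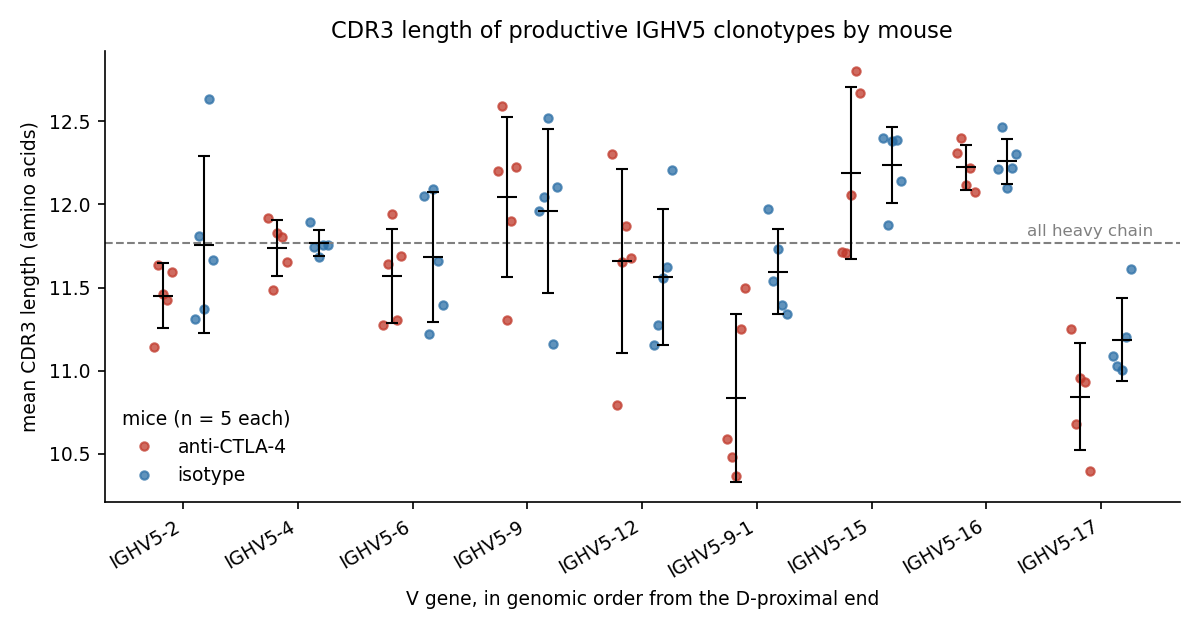
Mean CDR3 length in amino acids of productive clonotypes for each IGHV5 gene, in genomic order from the D-proximal end. Points are mice, anti-CTLA-4 left and isotype right, bars are mean ± SD (n = 5 each) and the dashed line is the mean over all heavy-chain clonotypes; IGHV5-16 averages 12.2 and IGHV5-17 11.0 amino acids.

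V mismatches to germline, a readout of somatic hypermutation, were few in IgM. IGHV5 IgM clonotypes carried 0.0532 ± 0.0166 mismatches per 100 V nucleotides in anti-CTLA-4 mice and 0.0560 ± 0.00788 in isotype mice, and 87.8% ± 2.74 and 88.4% ± 1.06 of them had none (SD, n = 5 each). Over all mice the IGHV5 value ranged from 0.0405 to 0.0823 and that of the whole heavy chain from 0.119 to 0.174, without overlap, a difference that was not tested. The IGHV2 family, at 0.0624 to 0.108, also lay below the whole heavy chain, and IGHV1, at 0.0959 to 0.138, overlapped it. The whole-chain value includes V calls with far higher means. The joint call of IGHV14-1 with IGHV14-2 had 2.81 ± 0.145 in anti-CTLA-4 and 2.76 ± 0.00817 in isotype mice (SD, n = 5 each). IGHV1-19 had 0.755 and 0.905. Whether such mismatches are hypermutation or a fixed difference from the germline record was not tested. Other V calls lay at the IGHV5 level, such as IGHV1-26 at 0.0637 and 0.0510 and IGHV1-64 at 0.0568 and 0.0499. The gap to the whole chain therefore does not set IGHV5 apart from single V calls. Of the 6 members with enough IgM clonotypes, none differed between treatments (exact permutation adjusted p from 0.653 to 0.992), and 0% of 76 V calls passed, with 6 at an unadjusted p under 0.05. IGHV5-9 had the smallest p of the 6, with 0.0577 ± 0.0169 in anti-CTLA-4 mice and 0.0382 ± 0.0203 in isotype mice (SD, n = 5 each; two-sided exact permutation p = 0.143). The smallest p of this design is 0.00794, which passes over 76 tests only where many V calls reach it together.

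IGHV5 IgG clonotypes carried 0.512, 0.685, 0.216, 0.170 and 0.283 mismatches per 100 V nucleotides in anti-CTLA-4 replicates 1 to 5, against 0.984, 0.151, 0.466, 1.46 and 1.25 in isotype replicates 1 to 5. Isotype replicates 1, 4 and 5 lay above every anti-CTLA-4 mouse, and isotype replicate 2 lay below them all. These values rest on 4 to 35 IgG clonotypes per mouse, and the family was not tested because anti-CTLA-4 replicate 1 had fewer than the minimum of 5.

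Weighted by deposited counts, the share of the family varied more between mice, and IgA held most IGHV5 counts in 7 of 10 mice. IGHV5 took 0.366%, 6.66%, 0.948%, 6.80% and 6.74% of productive heavy-chain counts in anti-CTLA-4 replicates 1 to 5, against 3.51%, 1.79%, 9.93%, 11.6% and 11.7% in isotype replicates 1 to 5. The groups overlapped, and in bulk RNA fewer cells and less RNA per cell cannot be told apart. IgA took 1.36%, 76.4%, 37.6%, 78.4% and 51.2% of the IGHV5 counts in anti-CTLA-4 replicates 1 to 5, against 76.9%, 19.7%, 71.5%, 90.4% and 84.7% in isotype replicates 1 to 5. Over all V genes IgA took 1.05%, 32.0%, 8.40%, 56.3% and 29.2% of counts in anti-CTLA-4 replicates 1 to 5. In isotype replicates 1 to 5 it took 45.7%, 23.3%, 42.8%, 63.4% and 60.1%, and these differences from IGHV5 were not tested. The largest IGHV5 lineage of a mouse was IgA in 8 of 10 mice, of which isotype replicates 3 and 4 shared the same clone. It was mainly IgE in anti-CTLA-4 replicate 5, from IGHV5-9, and mainly IgM in anti-CTLA-4 replicate 1, from IGHV5-6.

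The junctions of the largest lineages are shown to name these clones, with capitals for the bases that equal the germline V end.
IGHV5-17 IGHJ1, anti-CTLA-4 replicate 2: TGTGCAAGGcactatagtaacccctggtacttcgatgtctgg
IGHV5-17 IGHJ1, anti-CTLA-4 replicate 4: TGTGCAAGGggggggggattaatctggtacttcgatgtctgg
IGHV5-9 IGHJ4, anti-CTLA-4 replicate 5: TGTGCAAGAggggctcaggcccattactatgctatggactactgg
IGHV5-16 IGHJ2, isotype replicates 3 and 4: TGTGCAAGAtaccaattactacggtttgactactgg
IGHV5-4 IGHJ2, isotype replicate 5: TGTGCAAGAgcctacgagggctactgg
In anti-CTLA-4 mice these lineages held a count of 9296 or 55.9% of the IGHV5 counts in replicate 2, 3557 or 27.5% in replicate 4, and 2805 or 18.1% in replicate 5. The shared IGHV5-16 lineage held 18797 or 61.9% in isotype replicate 3 and 12202 or 48.7% in isotype replicate 4, and the IGHV5-4 lineage held 13866 or 74.4% in isotype replicate 5. The best counted sequence of each of the 5 had no V mismatch. In the mice whose largest lineage is not shown it had 0 in anti-CTLA-4 replicate 1, 2 in anti-CTLA-4 replicate 3, 2 in isotype replicate 1 and 3 in isotype replicate 2. In the remaining mice the largest lineage held 10.9% to 24.5% of the IGHV5 counts.

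Few IGHV5 rearrangements recurred between mice. Of 10621 productive combinations of V call, J gene and junction, 10559 were found in 1 mouse, 54 in 2, 5 in 3, 2 in 4 and 1 in 5. How many of the recurrent combinations are also among the rearrangements with more counts in another library is not given here. What led to the recurrence was not tested. Those found in 4 or 5 mice are shown.
IGHV5-16 IGHJ1, 5 mice: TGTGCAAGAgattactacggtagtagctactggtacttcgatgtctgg
IGHV5-6 IGHJ2, 4 mice: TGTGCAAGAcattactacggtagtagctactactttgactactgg
IGHV5-17 IGHJ3, 4 mice: TGTGCAAGGgggtttgcttactgg
The first was found in 2 anti-CTLA-4 and 3 isotype mice with a total count of 8, the second in 1 anti-CTLA-4 and 3 isotype mice with 20, and the third in 3 anti-CTLA-4 and 1 isotype mice with 7. The first and second were IgM, and the third was IgM and IgD.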

How the data were processed

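Receptor libraries from the RNA of deep cervical lymph nodes were made with a kit that adds molecular identifiers, per the labels' protocols. The deposited tables hold 1 row per receptor sequence with V, J and constant calls, a productive mark, a junction, a germline alignment and a count, per the file headers. Whether the authors' deposited count is of reads or molecules is not given in the sources used here, so clonotype numbers were analysed and the counts served as an alternative. Libraries held 33568 to 63017 sequences and deposited counts of 382184 to 790139.

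Allele names were removed, joint V calls (7.22% of heavy-chain sequences) were kept as calls of their own, and all 113 IGHV names matched the GRCm38.p6 RefSeq gene table, used for gene order. Clonotypes were tabulated by V call and mouse and fitted over all V calls with edgeR 4.0.16 in R 4.3.3 (TMM, filterByExpr, quasi-likelihood test, Benjamini-Hochberg, adjusted p under 0.05), with the mouse as a block within mice. Standard errors were derived from the F statistic. Shares, CDR3 lengths and mismatches were compared by exact permutation (252 arrangements) or exact sign flips (1024) with scipy 1.17.1, over V calls with at least 20 clonotypes in every mouse for CDR3 and IgM mismatches. CDR3 values leave out 736 productive clonotypes without an amino acid sequence. Germline V sequences are the longest germline records in the deposited alignments, ended where palindromic bases began. DESeq2 1.42.0 and other alternatives are described in the closing section. The V gene fits were tested on simulated data with log2 changes of 1, placed in V calls with many clonotypes. There the IgA fit missed most changes, and its log2 fold changes were shifted downward (mean signed error -0.854 over simulated increases and decreases together). The IgG fit missed some changes, and the others recovered nearly all. Smaller changes, the family fit and the fit of the treatment difference in the non-productive ratio were not simulated.

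The named genes were all members, other IGHV5 calls with at least 50 productive clonotypes, the 3 V calls nearest to IGHV5-2 in non-productive share, the IGHV2 and IGHV1 families, the largest IGHV5 lineage of each mouse and up to 5 recurrent rearrangements. Members and lists were chosen with earlier results of these data known. Mice were not paired by replicate number in the main tests. Correlations of same-numbered deviations over 98 V calls ran from 0.00768 to 0.25, which cannot show that same-numbered mice were unrelated. RNA came from each mouse separately, per the series' design text. Intervals and floors cover counting error only.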

Additional observations from a re-analysis of the deposited data

Results flagged for a closer look

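Among 64 groups of 5 values examined for a mouse far from the others, 2 were marked, and chance marks about 1 in 20. The IGHV5-15 share of productive clonotypes was 0.0328% in anti-CTLA-4 replicate 1, below the other anti-CTLA-4 mice, and rests on 7 clonotypes. IGHV5 IgM clonotypes carried 0.0823 V mismatches per 100 nucleotides in anti-CTLA-4 replicate 2, above the other anti-CTLA-4 mice. This was not particular to IGHV5. The same mouse was also highest of the anti-CTLA-4 mice for the whole heavy chain (0.174), IGHV1 (0.138) and IGHV2 (0.108).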

How the results depend on the processing

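No member passed in the comparison of treatments under any alternative run. The number of V calls passing there was 0 with DESeq2, with clonotypes counted at least 2 times, with deposited counts and with lineages. It was also 0 with shared rearrangements dropped only from the library where they had fewer counts. It was 3 without the filter, and 0 to 2 without single mice. With the replicate number as a block 4 V calls and 1 family passed, and IGHV5 had -0.13 (adjusted p = 0.228, edgeR). Families numbered 0 with a count of at least 2 or lineages, 1 with deposited counts and 1 to 3 without single mice. Non-productive over productive calls numbered 40 with a count of at least 2, 126 without the filter, 32 in frame and 70 to 79 without single mice, and the treatment difference had 0 to 1. IGHV5-2 was called under each alternative of that comparison, the sign-flip test included, and its log2 fold changes ran from 3.09 in frame to 5.18 out of frame. IGHV5-9, IGHV5-9-1 and IGHV5-12 lost their calls in frame, IGHV5-12 also with deposited counts, and IGHV5-4 and IGHV5-6 without the filter. IGHV5-16 passed as lower with deposited counts (-1.50) and without the filter (-0.39). IgG calls numbered 3 with DESeq2, 0 with a count of at least 2, 25 with deposited counts, 10 with lineages and 1 to 9 without single mice. IgA calls numbered 11, 20 and 23 to 32 with a count of at least 2, without TMM and without single mice. IgD calls numbered 22 in clonotypes counted 2 or more times and 37 to 44 without single mice. CDR3 calls numbered 32 with a count of at least 2, 21 with medians and 51 to 55 without single mice. J gene calls numbered 15 out of frame, 11 with IgM alone and 26 to 31 without single mice. IgG mismatches by family had 0 calls with a count of at least 2 or the replicate block and 0 to 1 without single mice. The cause was not tested.

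Directions turned as follows. Between treatments, a count of at least 2 gave IGHV5-6 0.0088, IGHV5-16 0.015 and IGHV5-17 0.0044, deposited counts gave IGHV5-6 0.26 and IGHV5-17 1.39, and lineages gave IGHV5-16 0.036. Without single mice IGHV5-15 ran from -0.18 to 0.11, IGHV5-16 from -0.058 to 0.013 and IGHV5-17 from -0.11 to 0.0068. For non-productive over productive, IGHV5-16 had 0.097 with a count of at least 2, 0.022 with IgM alone, 0.073 with lineages and -0.14 to 0.071 without single mice. IGHV5-4 had -0.45 and IGHV5-6 -1.0 with deposited counts, and -0.18 and -0.29 in frame. Its treatment difference was -0.043 for IGHV5-4 and -0.38 for IGHV5-6 with a count of at least 2, and ran from -0.74 to 0.20 for IGHV5-9-1 and -0.17 to 0.55 for IGHV5-15 without single mice. IGHV5-6 in IgG had 0.26 with DESeq2, 0.036 with joint calls given to the first gene, 0.52 with lineages and -0.43 to 0.24 without single mice. IGHV5-9 in IgA had 0.36 without TMM, and IGHV5-12 in IgD ran from -0.024 to 0.14 without single mice. For CDR3 length IGHV5-4 had 0.12 with a count of at least 2, 0.021 with IgM alone and -0.037 to 0.0094 without single mice, and IGHV5-9 had -0.10 with medians. For IgM mismatches IGHV5-16 had -0.013 with a count of at least 2, and IGHV5-17 had -0.77 percentage points for the share with a mismatch. Without single mice these ran from -0.0064 to 0.014 for IGHV5-4, -0.014 to 0.0037 for IGHV5-6, -0.0084 to 0.027 for IGHV5-9-1, -0.0034 to 0.0059 for IGHV5-16 and -0.0040 to 0.0078 for IGHV5-17.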

Other observations

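The IgG share of IGHV5-4 clonotypes did not overlap between treatments, a pattern picked after its values were seen and not tested. How many other V calls show the same is not given here, so whether it is unusual cannot be judged. IgG clonotypes made up 1.48%, 6.62%, 6.15%, 1.49% and 3.37% of productive IGHV5-4 clonotypes in anti-CTLA-4 replicates 1 to 5, against 0%, 0.643%, 0%, 0.538% and 0% in isotype replicates 1 to 5. The numbers behind them were 2, 10, 8, 4 and 7 clonotypes in 2, 5, 3, 2 and 2 lineages in anti-CTLA-4 mice, against 0, 2, 0, 1 and 0 clonotypes in isotype mice. Of these, 2 in anti-CTLA-4 replicate 4 and 1 in anti-CTLA-4 replicate 3 were rearrangements with more counts in another library. Over all V genes the IgG share was 3.55%, 5.27%, 4.95%, 1.0% and 1.70% in anti-CTLA-4 replicates 1 to 5, against 1.73%, 1.73%, 2.36%, 1.14% and 0.721% in isotype replicates 1 to 5, and its part in the IGHV5-4 pattern was not tested. IgA clonotypes of IGHV5-6 numbered 0 to 6 in anti-CTLA-4 mice and 0 to 1 in isotype mice.

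The mean CDR3 length of all productive IGHV5 clonotypes was 11.7 ± 0.05 amino acids in anti-CTLA-4 mice and 11.8 ± 0.0442 in isotype mice (SD, n = 5 each), a difference of -0.115 that was not tested. For IGHV5-9-1 it ranged from 10.4 to 11.5 amino acids in anti-CTLA-4 mice and from 11.3 to 12 in isotype mice.

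The joint call of IGHV5-4 with IGHV5-6 had 14 non-productive among 22 clonotypes, or 63.6%, and its 8 productive clonotypes carried a median of 22 V mismatches, against a median of 0 for each of the 9 members. Their mean was 22 as well, and 7 of the 8 were IgM and 1 was IgD. Whether these mismatches are hypermutation or a fixed difference from the germline record was not tested. It was picked after its values were seen.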
